A study of Mus musculus with 18 samples.

Results

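The genes described are those of the cytosolic ribosomal proteins in mouse leukemia cells, read across 3 MLL fusion constructs with and without MI-2-2. They were matched by name, as Rpl or Rps followed by a number and at most a short suffix. Rplp0, Rplp1, Rplp2 and Rpsa were added, and 82 of the 23418 genes listed matched. Of these, 43 encode large subunit proteins, 30 small subunit proteins, 3 proteins of the stalk, and 6 are paralogs with names ending in l or l1. The rule uses names, not levels, but the family was chosen with earlier results of these data known.

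PolyA RNA was sequenced from C57BL/6 leukemia cells carrying 1 of 3 constructs, the fusions MLL-AF9, MLL-AF6 and MLL-AF1p, grown with 6 µM MI-2-2 or with DMSO alone for 6 days. All 6 groups held DMSO at 0.25% and had 3 libraries each, 18 in all. MI-2-2 is a small molecule that blocks the binding of menin to MLL, and the comparison asks what that does to the RNA of cells carrying each fusion. The labels do not say that the 3 libraries of a group were separate cultures or clones, so the p-values rest on library-to-library spread alone, part or all of it possibly technical.

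Cytosolic ribosomes translate the messages of the nucleus. Their large and small subunits are assembled in the nucleolus from ribosomal RNA and a full set of ribosomal proteins, most of them encoded by a single expressed gene and many silent pseudogenes. Mammalian ribosomal protein mRNAs typically begin with a cytidine followed by a run of pyrimidines, the 5′ terminal oligopyrimidine (TOP) motif, through which mTOR and Larp1 set their translation together. Synthesis of these proteins is high in dividing blood progenitors, and loss of a single copy of several of the genes causes Diamond-Blackfan anaemia.

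Start sites were read for the TOP motif, of which a cytidine followed by at least 4 pyrimidines was taken as the mark. RefSeq promoter windows on GRCm38.p6 were matched by symbol for 62 of the 82 genes; expression was counted on mm9, a different build, so no position was carried over. Each line below runs 15 bases upstream of the annotated start and 25 bases from it. Capitals mark the first transcribed base and, only where that base is C, the unbroken pyrimidine run that follows. In Rpl22l1 and Rps27l the first base is G, and the pyrimidines after it are left in lower case. Shown first are 6 genes with a TOP-like start, then 3 paralogs with levels above 50 RPKM, which lack it, as do most of the canonical genes matched.
Rps6: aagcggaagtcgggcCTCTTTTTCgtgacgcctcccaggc
Rps10: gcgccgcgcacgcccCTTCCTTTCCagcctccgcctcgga
Rps18: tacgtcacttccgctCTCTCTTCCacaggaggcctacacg
Rpl15: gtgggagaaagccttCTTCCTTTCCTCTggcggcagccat
Rpl28: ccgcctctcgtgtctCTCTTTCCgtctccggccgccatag
Rpl38: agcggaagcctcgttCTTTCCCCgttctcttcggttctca
Rpl22l1: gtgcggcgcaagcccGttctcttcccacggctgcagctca
Rpl7l1: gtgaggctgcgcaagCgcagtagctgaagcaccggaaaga
Rps27l: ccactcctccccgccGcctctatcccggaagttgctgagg
The windows lie at chr4:86857343-86857382 (- strand) for Rps6, chr17:27635220-27635259 (- strand) for Rps10, chr17:33955641-33955680 (- strand) for Rps18, chr14:18270962-18271001 (- strand) for Rpl15, chr7:4792950-4792989 (+ strand) for Rpl28 and chr11:114668565-114668604 (+ strand) for Rpl38. Those of the paralogs lie at chr3:28805493-28805532 (+ strand) for Rpl22l1, chr17:46782632-46782671 (- strand) for Rpl7l1 and chr9:66946071-66946110 (+ strand) for Rps27l, the first of its annotated starts.

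A first base C with the next 4 all C or T stood at an annotated start of 13 of the 62 genes (21.0%), against 3.01% of the 27025 genes with a window. Annotated starts can lie some bases off the main start in a cell type, and a window without the run says only that the letters are not at that position. The letters CTTTCC, searched on the sense strand from 20 bases before to 50 after the start, were present in 18 of 62 (29.0%) against 3.79% of genes. CTCTTTCC, which contains that motif, was present in 7 (11.3%) against 0.363%. CCGGAAG, the core letters of GABP and other ETS sites, was found on either strand of the 300-base window in 25 of 62 (40.3%) against 9.93%. CACGTG, the E-box core, was found in 6 (9.68%) against 8.09%. These matches are descriptions of sequence and not of binding.

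Depth, in units of 1000000 counted reads, ran from 21.18 to 56.3 per library and was highest in MLL-AF1p. The cell type label was checked against marker genes. Markers of B cells, T cells, erythroid cells and stroma summed to at most 2.89, 0.17, 1.51 and 0.88 RPKM in any library, while those of myeloid cells were high in all. The summed level of 9 neutrophil markers (Ly6g is not in the table) ran from 2266 to 4057 RPKM in the DMSO libraries and from 18729 to 35747 with MI-2-2. For 10 monocyte and macrophage markers the sum lay between 589 and 1946 in MLL-AF9 DMSO, 2022 and 4109 in MLL-AF6 DMSO, and 692 and 809 in MLL-AF1p DMSO. With MI-2-2 it lay between 3847 and 5034, 9203 and 13196, and 4213 and 4660. The sum of 4 primary granule markers was lower after treatment in MLL-AF9 (medians 8037 and 2229 RPKM) and MLL-AF6 (5178 and 2045), and its MLL-AF1p groups overlapped (7923 and 7038). Progenitor markers, 5 in all, summed to medians of 114, 168 and 175 RPKM under DMSO and 57.0, 59.6 and 110 after treatment. These sums moved with the treatment, and their part in the ribosomal protein results was not tested.

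The 82 genes took a large share of each library, and a smaller one with MI-2-2. Counting used the deposited RPKM (reads per kilobase of gene per 1000000 counted reads), from which whole reads could be recovered. They held 9.63, 12.1 and 10.4% of counted reads in the MLL-AF9 DMSO libraries 1, 2 and 3, and 5.37, 5.45 and 5.44% with MI-2-2. In MLL-AF6 they held 5.58, 7.20 and 6.87% under DMSO and 4.39, 5.08 and 4.42% with MI-2-2. The MLL-AF1p libraries held 8.01, 8.34 and 8.05% under DMSO and 5.87, 6.02 and 5.98% with MI-2-2. In none of the constructs did the treated libraries overlap with their controls. MLL-AF9 means were 10.7 ± 1.27% (DMSO) and 5.42 ± 0.0426% (treated), those of MLL-AF6 6.55 ± 0.854% and 4.63 ± 0.388%, and those of MLL-AF1p 8.13 ± 0.182% and 5.96 ± 0.0754% (± SD of 3 libraries). In bulk RNA, fewer cells of a kind and less of an RNA per cell cannot be told apart.

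**Figure D1:**
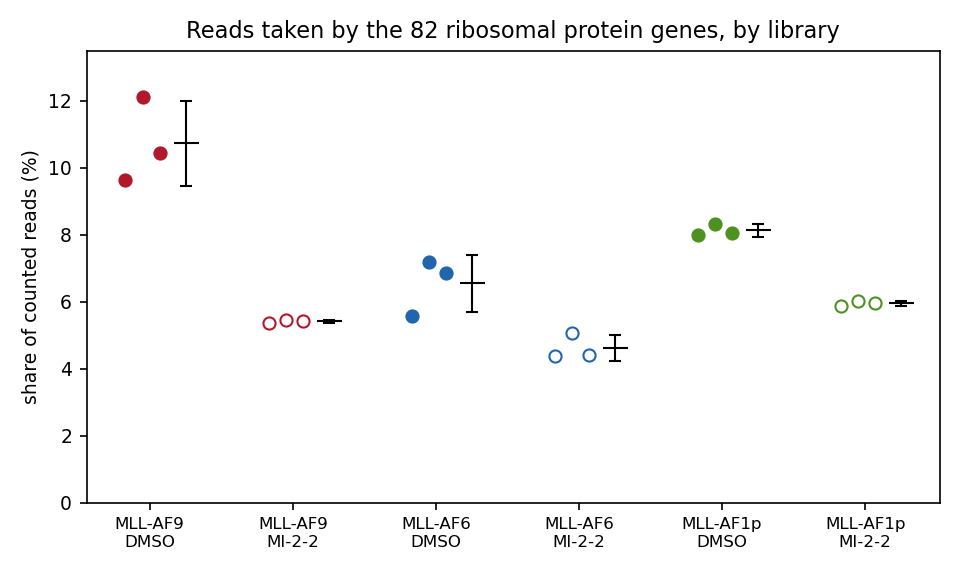
Share of counted reads (%) taken by the 82 ribosomal protein genes in each library, filled for DMSO and open for MI-2-2, with the mean and SD of 3 libraries as bars. MLL-AF9 under DMSO runs from 9.63 to 12.1% and the treated libraries of all constructs from 4.39 to 6.02%.

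The libraries of a group were not equally high. MLL-AF9 DMSO library 2 held the highest value of all 18 libraries for 72 of the 78 genes tested, and MLL-AF6 MI-2-2 libraries 1 and 3 the lowest for 43 and 29. MLL-AF6 DMSO library 1 had the lowest share of its group, 5.58%, and the highest summed level of monocyte and macrophage markers, 4109 RPKM against 2022 and 2564. MLL-AF9 DMSO library 1, with the lowest share of that group, likewise had the highest marker level, 1946 against 589 and 745. MLL-AF1p DMSO went the other way, with library 2 highest both in share, 8.34%, and in marker level, 809 against 692 and 710. Of the treated groups, only in MLL-AF6 did the library of lowest share, 4.39%, have the highest marker level, 13196. Whether these marker levels bear on the share was not tested. Ribosomal proteins filled 63 or 64 of the 100 genes with the highest RPKM in each MLL-AF9 DMSO library and 52 or 53 with MI-2-2, 52 to 61 and 44 to 46 in MLL-AF6, and 62 or 63 and 54 in MLL-AF1p.

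Both subunits moved together. Large subunit and stalk genes together held 6.30 ± 0.739% of reads in untreated MLL-AF9 (± SD of 3 libraries) and 3.15 ± 0.0239% after treatment. Small subunit genes held 4.39 ± 0.536% and 2.24 ± 0.0200%. The ratio of large subunit and stalk reads to small subunit reads lay between 1.4 and 1.47 in every one of the 18 libraries. Among the 75 genes above 50 RPKM in all libraries, the order of levels (RPKM, so per length) was much alike in every group, with Spearman coefficients of 0.945 to 0.987 between group means across genes, which are not independent replicates.

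Gene by gene, MI-2-2 went with lower levels nearly throughout the family. A gene was tested where it reached 1 RPKM in at least 3 libraries, which left 78 of the 82, and a change was called at a Benjamini-Hochberg adjusted p under 0.05 over all 11238 genes tested. In MLL-AF9, 76 of 78 fell and 0 rose, where 27.9% of all genes tested fell and 28.5% rose. In MLL-AF6, 73 fell and 0 rose, where 38.9% of all genes fell and 18% rose. In MLL-AF1p, 70 fell and 2 rose, against 26.3% and 19.1%. The same 70 genes fell in all 3 constructs. The median change on the log2(RPKM + 0.5) scale was −0.99 in MLL-AF9, so that the median level fell by 49.7%, while the median over all genes tested was −0.00. It was −0.48 in MLL-AF6 and −0.49 in MLL-AF1p, beside −0.16 and −0.06 for all genes. The 3 DMSO and 3 treated libraries did not overlap, with the treated ones lower, for 76, 63 and 72 of the 78 genes (28.2, 41.5 and 40.3% of all genes tested). Leaving out any single library left 74 to 76, 67 to 75 and 63 to 72 falls.

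The size of the fall depended on scaling. Quantile normalization, which forces the libraries to a common distribution, left medians of −0.42, −0.37 and −0.24 in the 3 constructs and counts of 68, 69 and 50 falls. Under it Rpl10 in MLL-AF9 turned to a rise of 0.15, and calls lost in that construct included those of Rps29 (−0.011), Rps4x (−0.090) and Rpl39 (−0.17). Those lost in MLL-AF6 included Rpl11 (−0.14). In MLL-AF1p they included Rplp2 (−0.094), Rpl7 (−0.10), Rpl37a (−0.12), Rpl18 (−0.026) and Rps15 (−0.069), while Rps19 (0.011) and Rps29 (0.028) turned sign without a call. Ribosomal protein transcripts are short, with a median of 739 bases for the 75 above 50 RPKM against 3029 for all genes tested. With a trend on length removed the medians were −0.79, −0.36 and −0.37, and the median of all genes in MLL-AF6 moved from −0.16 to −0.00. Removing the length trend lost 2, 5 and 6 calls of a fall in MLL-AF9, MLL-AF6 and MLL-AF1p. Among them were Rpl3 (−0.12), Rpl22 (−0.23), Rps27a (−0.22) and Rpsa (−0.23) in MLL-AF6, and Rps19 (−0.12) and Rpl18 (−0.18) in MLL-AF1p. Without MLL-AF6 DMSO library 1 the median in that construct was −0.60. Across the other 11160 genes, the Spearman coefficient of change with length was 0.21, 0.02 and 0.06 in MLL-AF9, MLL-AF6 and MLL-AF1p, given as a description.

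**Figure D2:**
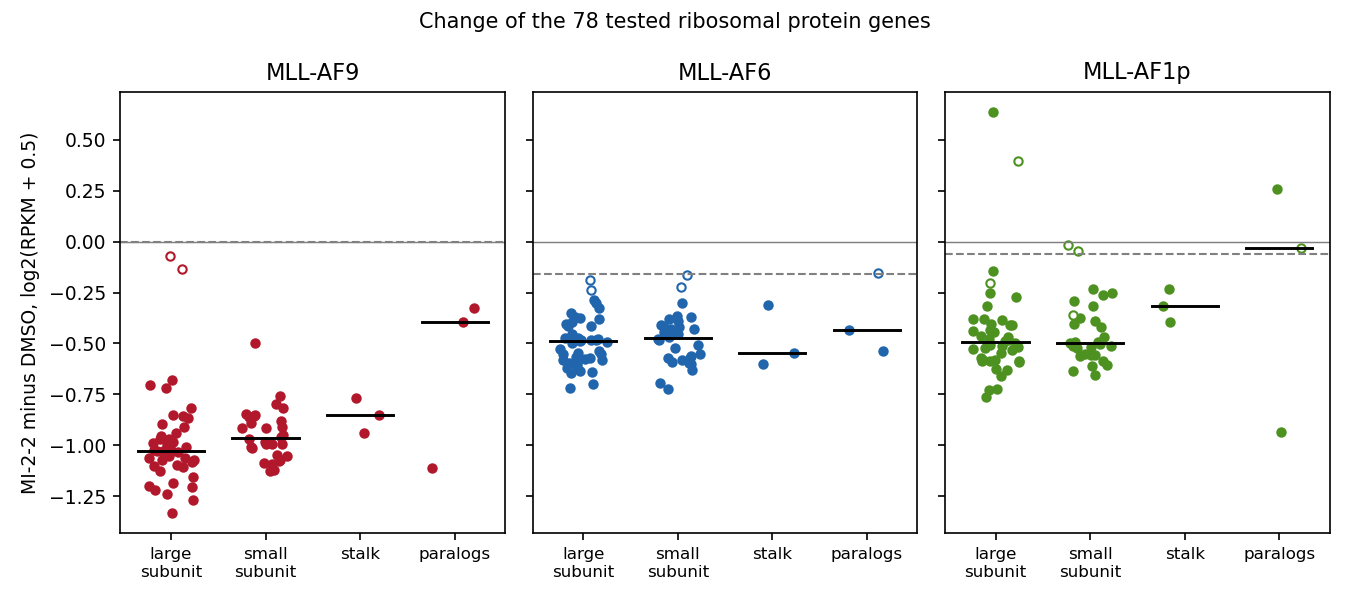
Change with MI-2-2 on the log2(RPKM + 0.5) scale for the 78 genes tested, by role and construct. Points are genes, filled where the adjusted p was under 0.05, black bars are medians of each role and the dashed line is the median of all genes tested, and most MLL-AF9 points lie lower than those of the other constructs.

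The large subunit carries the peptidyl-transferase centre and the exit tunnel. Of its 42 genes tested, 40, 40 and 39 fell in MLL-AF9, MLL-AF6 and MLL-AF1p, with medians of −1.03, −0.49 and −0.49. Rpl5 and Rpl11 form, with 5S rRNA, a particle that also binds Mdm2 when ribosome assembly is disturbed. Rpl5 had the largest mean fall of all 78 genes. It stood at 1037, 1303 and 1069 RPKM in the MLL-AF9 DMSO libraries against 490.3, 490.3 and 493 with MI-2-2, 559.8, 739 and 694 against 388, 441 and 393 in MLL-AF6, and 854, 991 and 885 against 536, 559 and 550.2 in MLL-AF1p. No treated library reached a control level, and the changes were −1.20, −0.70 and −0.73 (SE 0.10 each; limma, adjusted p = 7.82e-08, 3.05e-05 and 3.24e-05). Rpl11 stood at 2232, 2983 and 2548 RPKM in the MLL-AF9 DMSO libraries against 1155, 1237 and 1195 with MI-2-2, 1092, 1467 and 1402 against 911, 1091 and 951 in MLL-AF6, and 1957, 2055 and 2008 against 1303, 1385 and 1339 in MLL-AF1p. It fell in each construct, by changes of −1.10, −0.42 and −0.58 (SE 0.11 each; limma, adjusted p = 5.54e-07, 0.00464 and 0.000545), and MLL-AF6 DMSO library 1 only just cleared the highest treated library of that construct.

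Rpl36a, whose product lies near the site where the emptied tRNA leaves, had the next largest mean fall. Its values were 1319, 1690 and 1320 RPKM in the MLL-AF9 DMSO libraries against 567, 611 and 604 with MI-2-2, 610.0, 930.5 and 858 against 467, 614 and 493 in MLL-AF6, and 1166, 1344 and 1165 against 680.1, 779 and 708 in MLL-AF1p. MLL-AF6 DMSO library 1 lay below MI-2-2 library 2, so those groups overlapped, and the changes were −1.27, −0.59 and −0.76 (SE 0.14 each; limma, adjusted p = 2.04e-06, 0.0024 and 0.000501). Rpl37, a zinc-binding protein, stood at 560.3, 708 and 578 RPKM in the MLL-AF9 DMSO libraries against 241, 244 and 244 with MI-2-2, 248, 308 and 319 against 189, 230.0 and 200.1 in MLL-AF6, and 355, 372 and 369 against 239.6, 245 and 244 in MLL-AF1p. Its change of −1.33 in MLL-AF9 was the largest of any family member in that construct, and the 3 changes were −1.33, −0.49 and −0.59 (SE 0.10 each; limma, adjusted p = 1.87e-08, 0.000564 and 0.000187).

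Rpl3 reaches toward the peptidyl-transferase centre. It stood at 1365, 1913 and 1658 RPKM in the MLL-AF9 DMSO libraries against 829.6, 875 and 819 with MI-2-2, 754, 989 and 902 against 656, 817 and 693 in MLL-AF6, and 1417, 1517 and 1460 against 954, 987 and 995 in MLL-AF1p. The MLL-AF6 groups overlapped, and the changes were −0.95, −0.28 and −0.58 (SE 0.11 each; limma, adjusted p = 3.95e-06, 0.0444 and 0.000728). The MLL-AF6 call was lost in 14 of the 18 fits that left out 1 library (adjusted p up to 0.184). Those of MLL-AF9 DMSO 1 and 2 and MLL-AF6 DMSO 1 and MI-2-2 2 were the exceptions. It was lost too with no filter on low values (limma, adjusted p = 0.0818), median centring (0.162) and that construct fitted alone (0.106). Rpl10 joins the large subunit late in its assembly. Its levels were 2430, 2830 and 2569 RPKM in the MLL-AF9 DMSO libraries against 1626, 1610 and 1650 with MI-2-2, 1735, 2024 and 1930 against 1420, 1546 and 1395 in MLL-AF6, and 2142, 2144 and 2193 against 1574, 1547 and 1582 in MLL-AF1p. Groups did not overlap in any construct, and the changes of −0.68, −0.38 and −0.46 (SE 0.07 each; limma, adjusted p = 5.54e-07, 0.000198 and 5.43e-05) were smaller in MLL-AF9 than the family's median there.

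Nearly all large subunit genes fell, against 27.9, 38.9 and 26.3% of all genes tested in MLL-AF9, MLL-AF6 and MLL-AF1p. Genes for proteins round the mouth of the exit tunnel did so too, 8 of 8 tested in each construct. Their medians of −1.06, −0.51 and −0.56 lay near those of the whole subunit. Rpl39 is among them and lines the tunnel itself. It stood at 2057, 2292 and 1994 RPKM in the MLL-AF9 DMSO libraries against 1069, 1170 and 1131 with MI-2-2, 1223, 1693 and 1584 against 979, 1124 and 946 in MLL-AF6, and 2061, 2333 and 2117 against 1319, 1476 and 1322 in MLL-AF1p. The changes were −0.91, −0.55 and −0.66 (SE 0.11 each; limma, adjusted p = 3.11e-06, 0.000431 and 0.000132), with no overlap between treated and control libraries in any construct. Rpl38, known from mice for its part in translating Hox mRNAs, stood at 501, 659 and 540.1 RPKM in the MLL-AF9 DMSO libraries against 257, 271 and 262 with MI-2-2, 277, 399 and 371 against 229, 276 and 229.7 in MLL-AF6, and 456, 467 and 466 against 315, 334 and 312 in MLL-AF1p. The controls were higher in each construct, with MLL-AF6 DMSO library 1 at 277 just above MI-2-2 library 2 at 276, and the changes were −1.10, −0.50 and −0.53 (SE 0.12 each; limma, adjusted p = 1.46e-06, 0.00232 and 0.00205). As printed above, its annotated start is a C followed by pyrimidines.

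The stalk, made of Rplp0 with copies of Rplp1 and Rplp2, calls elongation factors to the ribosome. Rplp0 stood at 2460, 3154 and 2729 RPKM in the MLL-AF9 DMSO libraries against 1520, 1545 and 1529 with MI-2-2, 1746, 2221 and 2058 against 1277, 1529 and 1304 in MLL-AF6, and 2125, 2227 and 2114 against 1714, 1694 and 1786 in MLL-AF1p. Rplp1 stood at 2987, 3847 and 3283 RPKM in the MLL-AF9 DMSO libraries against 1947, 1995 and 1959 with MI-2-2, 1920, 2315 and 2288 against 1732, 1898 and 1619 in MLL-AF6, and 2648, 2514 and 2515 against 2122, 2253 and 2156 in MLL-AF1p. Rplp2 stood at 1811, 2441 and 2153 RPKM in the MLL-AF9 DMSO libraries against 1113, 1091 and 1114 with MI-2-2, 1258, 1438 and 1453 against 862, 1013 and 858 in MLL-AF6, and 1584, 1434 and 1487 against 1147, 1144 and 1138 in MLL-AF1p. All 3 genes were highest in MLL-AF9 DMSO. The changes were −0.85, −0.55 and −0.32 for Rplp0 (SE 0.10 each; limma, adjusted p = 2.16e-06, 0.000188 and 0.0147), and quantile normalization ended its calls in MLL-AF9 (−0.093, adjusted p = 0.224) and MLL-AF1p (−0.052, adjusted p = 0.528). Those of Rplp1 were −0.77, −0.31 and −0.23 (SE 0.09 each; limma, adjusted p = 3.41e-06, 0.00865 and 0.0473), and its call in MLL-AF1p was lost in 12 of 18 fits that left out 1 library, all 6 of that construct among them (adjusted p up to 0.125), and with the length trend removed (−0.077). Its call in MLL-AF6 was lost under median centring (−0.23) and quantile normalization (−0.30). That in MLL-AF1p was lost under both too, and with no filter on low values (limma, adjusted p = 0.118, 0.121 and 0.122). The changes of Rplp2 were −0.94, −0.60 and −0.39 (SE 0.09 each; limma, adjusted p = 6.23e-07, 6.62e-05 and 0.00336). Rplp1 had the highest mean level of the family over the 18 libraries, 2333 RPKM.

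The small subunit decodes the mRNA. Of its 30 genes, 30, 28 and 27 fell, with medians of −0.96, −0.47 and −0.50. Among all genes tested, 27.9, 38.9 and 26.3% fell. Rps6, the substrate of the S6 kinases downstream of mTOR, stood at 1818, 2302 and 2019 RPKM in the MLL-AF9 DMSO libraries against 939.6, 957 and 965 with MI-2-2, 1010, 1436 and 1287 against 757, 912 and 775 in MLL-AF6, and 1535, 1666 and 1581 against 1068, 1088 and 1096 in MLL-AF1p. Groups were apart in every construct, and the changes were −1.09, −0.60 and −0.56 (SE 0.11 each; limma, adjusted p = 6.33e-07, 0.00028 and 0.000786). Rps3 lines the entry to the mRNA channel. It stood at 1198, 1332 and 1217 RPKM in the MLL-AF9 DMSO libraries against 650.1, 631 and 646 with MI-2-2, 631, 753 and 733 against 508, 542 and 504 in MLL-AF6, and 786, 796 and 784 against 631, 640.1 and 660.2 in MLL-AF1p. No treated library reached a control level, and the changes were −0.96, −0.44 and −0.29 (SE 0.06 each; limma, adjusted p = 6.57e-09, 3.25e-05 and 0.00175).

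Rps2, which also lies at the entry of the mRNA channel, stood at 1862, 2542 and 2278 RPKM in the MLL-AF9 DMSO libraries against 1305, 1356 and 1254 with MI-2-2, 1134, 1595 and 1428 against 1109, 1296 and 1126 in MLL-AF6, and 2065, 1811 and 2059 against 1964, 1904 and 1878 in MLL-AF1p. The MLL-AF9 controls were all higher than the treated libraries, while both other constructs overlapped. It fell in MLL-AF9 alone by the test, with changes of −0.76, −0.22 and −0.04 (SE 0.12 each; limma, adjusted p = 6.42e-05, 0.123 and 0.791), and an effect that differed between constructs (F test in limma, adjusted p = 0.00672). Without MLL-AF6 DMSO library 1 its change in MLL-AF6 was −0.36 and passed (limma, adjusted p = 0.0123). Under quantile normalization the call in MLL-AF9 was lost (−0.011, adjusted p = 0.907) and MLL-AF1p rose by 0.23 (adjusted p = 0.0173). Rps28 stood at 2354, 2445 and 2369 RPKM in the MLL-AF9 DMSO libraries against 1210, 1147 and 1237 with MI-2-2, 1400, 1538 and 1652 against 1078, 1155 and 1053 in MLL-AF6, and 1649, 1676 and 1584 against 1161, 1182 and 1144 in MLL-AF1p. Its groups were separate throughout, with changes of −1.0, −0.48 and −0.49 (SE 0.06 each; limma, adjusted p = 2.89e-09, 1.06e-05 and 1.34e-05).

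Genes whose loss gives Diamond-Blackfan anaemia, a failure of red cell precursors, make up a list of 16, of which 15 were tested. Of these, 15, 14 and 13 fell, where 27.9, 38.9 and 26.3% of all genes tested did. This was near the family as a whole, of which 76, 73 and 70 of 78 fell. Rps19, the gene most often affected, stood at 1646, 2102 and 1825 RPKM in the MLL-AF9 DMSO libraries against 1026, 949 and 1015 with MI-2-2, 883, 1164 and 1096 against 796, 849.8 and 754 in MLL-AF6, and 1238, 1263 and 1239 against 1027, 1036 and 1054 in MLL-AF1p. Its changes were −0.89, −0.38 and −0.26 (SE 0.10 each; limma, adjusted p = 1.22e-06, 0.00326 and 0.0354), and no construct had overlapping groups. Without any 1 of the 6 MLL-AF1p libraries its call there was lost (limma, adjusted p up to 0.0883), as it was with no filter on low values (0.0686) and median centring (0.0869). Rps29, also of that list, stood at 2451, 2848 and 2400 RPKM in the MLL-AF9 DMSO libraries against 1444, 1464 and 1509 with MI-2-2, 1504, 1664 and 1799 against 1232, 1418 and 1205 in MLL-AF6, and 1953, 1929 and 1866 against 1522, 1591 and 1506 in MLL-AF1p. It fell by changes of −0.80, −0.37 and −0.32 (SE 0.08 each; limma, adjusted p = 6.34e-07, 0.00126 and 0.00493). Rps26, at the exit of the mRNA channel, stood at 1869, 2273 and 2123 RPKM in the MLL-AF9 DMSO libraries against 986, 971 and 979 with MI-2-2, 874, 1072 and 1114 against 663, 819.6 and 669 in MLL-AF6, and 1395, 1311 and 1363 against 879, 864 and 839 in MLL-AF1p. It fell by changes of −1.09, −0.51 and −0.66 (SE 0.10 each; limma, adjusted p = 1.48e-07, 0.000386 and 5.86e-05).

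Rps14 is known from the 5q deletion of myelodysplastic syndrome, where a single copy is left. It stood at 1819, 2522 and 2085 RPKM in the MLL-AF9 DMSO libraries against 1064, 1081 and 1054 with MI-2-2, 1050, 1465 and 1323 against 849, 961 and 846 in MLL-AF6, and 1441, 1561 and 1476 against 1046, 1074 and 1119 in MLL-AF1p. Its changes were −0.99, −0.52 and −0.47 (SE 0.12 each; limma, adjusted p = 2.79e-06, 0.00129 and 0.00387), and every treated library lay below every control of its construct. Rps4x, from the X chromosome, stood at 2230, 2739 and 2338 RPKM in the MLL-AF9 DMSO libraries against 1315, 1369 and 1347 with MI-2-2, 1543, 2080 and 1891 against 1065, 1236 and 1091 in MLL-AF6, and 1975, 2085 and 2092 against 1407, 1450 and 1459 in MLL-AF1p. Its changes of −0.85, −0.69 and −0.51 (SE 0.10 each; limma, adjusted p = 2.4e-06, 2.29e-05 and 0.000563) did not pass the F test of a difference between constructs (adjusted p = 0.116 in limma).

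Rps27a is made as a fusion with ubiquitin. It stood at 862, 1220 and 956 RPKM in the MLL-AF9 DMSO libraries against 505, 567 and 525 with MI-2-2, 490.2, 788 and 675 against 456, 550.3 and 461 in MLL-AF6, and 791, 936 and 820.5 against 579.9, 633 and 596 in MLL-AF1p. MLL-AF6 DMSO library 1 overlapped with the treated libraries, and the changes were −0.91, −0.39 and −0.49 (SE 0.15 each; limma, adjusted p = 8.78e-05, 0.0359 and 0.0141). Its call in MLL-AF1p was lost without DMSO library 2 (adjusted p = 0.0609 in limma). That in MLL-AF6 was lost without DMSO library 2 or 3 or MI-2-2 library 1 or 3 (adjusted p up to 0.185). It was lost too with no filter on low values (limma, adjusted p = 0.0633), median centring (0.105) and that construct fitted alone (0.110). Rpsa, first described as a laminin receptor, stood at 1481, 2308 and 1828 RPKM in the MLL-AF9 DMSO libraries against 926, 966 and 905 with MI-2-2, 736, 1159 and 988 against 630.2, 838 and 678 in MLL-AF6, and 1456, 1524 and 1482 against 1136, 1159 and 1186 in MLL-AF1p. Its controls varied widely, 1481 to 2308 in MLL-AF9 and 736 to 1159 in MLL-AF6. MLL-AF1p alone missed the threshold, with changes of −0.98, −0.41 and −0.36 (SE 0.16 each; limma, adjusted p = 6.88e-05, 0.0351 and 0.0734). The MLL-AF6 call was lost without the same 4 libraries as for Rps27a (adjusted p up to 0.173). It was lost too with no filter on low values (limma, adjusted p = 0.0654), median centring (0.0976) and that construct fitted alone (0.106). MLL-AF1p passed without DMSO library 1 or 2 of MLL-AF9 or of MLL-AF6 (adjusted p down to 0.0338). It also passed with the replicate block (0.0169) and with that construct fitted alone (0.000237).

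The 6 paralogs went separate ways. Rpl10l was listed at 0 in all 18 libraries, Rpl39l had 0 or 1 reads and Rpl3l had 11 to 40 reads per library, and none of the 3 was tested. Rpl22l1, whose product can take the place of Rpl22 in the ribosome, had an RPKM close to that of its partner. It stood at 345, 266 and 273 RPKM in the MLL-AF9 DMSO libraries against 135, 121 and 149 with MI-2-2, 205, 186 and 221 against 145, 138 and 138 in MLL-AF6, and 268, 290.3 and 283 against 142, 152 and 145 in MLL-AF1p. Treated libraries lay below controls in every construct, and the changes were −1.11, −0.54 and −0.94 (SE 0.10 each; limma, adjusted p = 9.41e-08, 0.000193 and 1.39e-06). Rpl22 itself stood at 255, 338 and 295 RPKM in the MLL-AF9 DMSO libraries against 136, 144 and 141 with MI-2-2, 114, 176 and 155 against 99.5, 125 and 106 in MLL-AF6, and 240.2, 265 and 247 against 154, 177 and 169 in MLL-AF1p. The changes of Rpl22 were −1.06, −0.41 and −0.59 (SE 0.13 each; limma, adjusted p = 6.09e-06, 0.0155 and 0.00203), with overlap in MLL-AF6 only. There the call was lost without DMSO library 2 or 3 or MI-2-2 library 1 (adjusted p up to 0.0874). It was lost too with median centring (limma, adjusted p = 0.0522) and with that construct fitted alone (0.0807). Under DMSO, Rpl22l1 reached 78.7 to 135% of the RPKM of Rpl22 in MLL-AF9, 106 to 180% in MLL-AF6 and 109 to 114% in MLL-AF1p. With MI-2-2 it reached 84.2 to 106%, 110 to 146% and 85.9 to 92.6%. These ratios rest on the gene lengths used, 481 bases for Rpl22l1 and 2044 for Rpl22. In reads, Rpl22 was higher in every library, with 15158 against 2808 in MLL-AF9 DMSO library 2 and 7067 against 2988 in MLL-AF6 DMSO library 1.

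Rpl7l1 went up in MLL-AF1p, where nearly all of the family fell. It stood at 97.0, 79.0 and 80.1 RPKM in the MLL-AF9 DMSO libraries against 66.6, 62.3 and 64.7 with MI-2-2, 71.7, 69.7 and 75.6 against 55.9, 52.1 and 52.5 in MLL-AF6, and 60.0, 60.3 and 59.1 against 72.2, 70.8 and 72.0 in MLL-AF1p. Treated libraries were lower in MLL-AF9 and MLL-AF6 and higher in MLL-AF1p, without overlap. The changes were −0.40, −0.43 and 0.26 (SE 0.07 each; limma, adjusted p = 0.000128, 6.03e-05 and 0.00533), and no other of the 78 genes had a smaller p in the F test of a difference between constructs (adjusted p = 5.01e-05). Its partner Rpl7 stood at 1783, 1920 and 1816 RPKM in the MLL-AF9 DMSO libraries against 915, 959.7 and 940.0 with MI-2-2, 1093, 1385 and 1277 against 789, 879 and 785 in MLL-AF6, and 1558, 1652 and 1607 against 1159, 1206 and 1193 in MLL-AF1p. Rpl7 fell in all 3, with changes of −0.97, −0.61 and −0.44 (SE 0.07 each; limma, adjusted p = 3.06e-08, 5.93e-06 and 0.000224).

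Rps27l, a target of p53 in several cell types, had the smallest mean fall among genes above 50 RPKM. It stood at 225, 266 and 209 RPKM in the MLL-AF9 DMSO libraries against 183, 196 and 176 with MI-2-2, 141, 197 and 181 against 150.1, 167 and 147 in MLL-AF6, and 258, 252 and 260.3 against 252, 265 and 238 in MLL-AF1p. It fell in MLL-AF9 and did not pass in the others, with changes of −0.33, −0.15 and −0.03 (SE 0.11 each; limma, adjusted p = 0.0167, 0.242 and 0.838). The groups overlapped in MLL-AF6 and in MLL-AF1p. Without MLL-AF6 DMSO library 1 its change in MLL-AF6 was −0.29 and passed (limma, adjusted p = 0.0145), and without DMSO library 2 or MI-2-2 library 3 of MLL-AF9 the call there was lost (adjusted p up to 0.0878). It was lost too with the length trend removed (−0.037, adjusted p = 0.662).

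**Figure D3:**
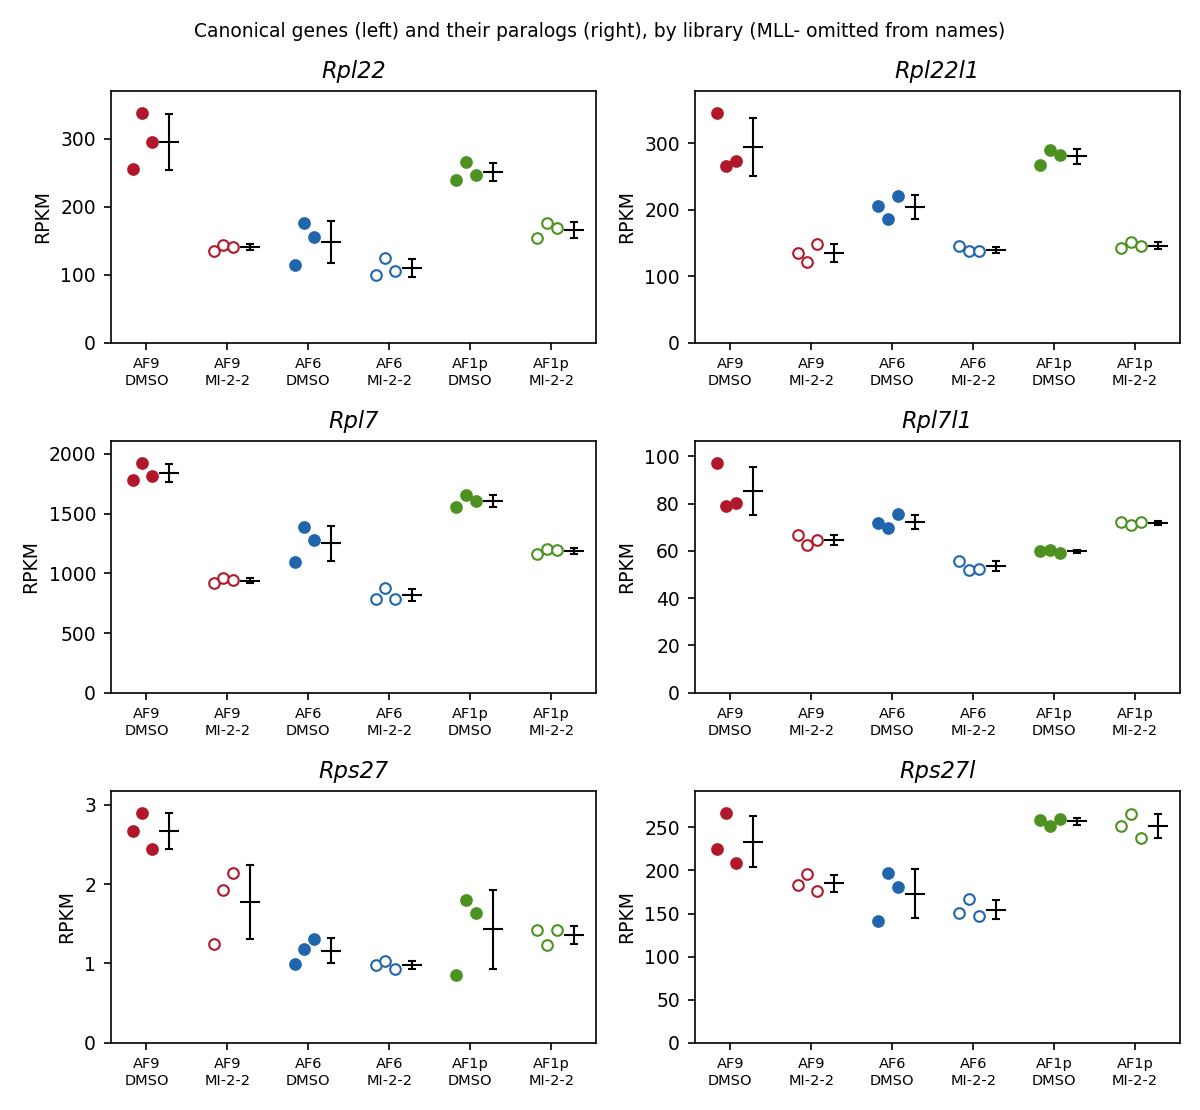
RPKM of Rpl22, Rpl7 and Rps27 (left) and of their paralogs Rpl22l1, Rpl7l1 and Rps27l (right) in each library, filled for DMSO and open for MI-2-2, with mean and SD of 3 libraries. In MLL-AF1p, Rpl7l1 goes from 59.1 to 60.3 under DMSO to 70.8 to 72.2 with MI-2-2 while Rpl7 goes down.

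Canonical genes were listed near 0 in 4 cases, which sets the limits of the list. Rpl26 had 0 to 2 reads per library and was not tested. Rps27 stood at 2.67, 2.89 and 2.44 RPKM in the MLL-AF9 DMSO libraries against 1.25, 1.93 and 2.13 with MI-2-2, 0.996, 1.18 and 1.31 against 0.983, 1.03 and 0.924 in MLL-AF6, and 0.86, 1.8 and 1.63 against 1.42, 1.23 and 1.42 in MLL-AF1p. Its changes were −0.50, −0.16 and −0.02 (SE 0.17 each; limma, adjusted p = 0.0228, 0.435 and 0.942), and the call in MLL-AF9 was lost without DMSO library 2 or MI-2-2 library 1 (adjusted p up to 0.134), with the length trend removed (−0.29), with that construct fitted alone and with voom. Rpl30 stood at 1.39, 0.99 and 1.06 RPKM in the MLL-AF9 DMSO libraries against 0.953, 1.43 and 0.856 with MI-2-2, 1.26, 1.09 and 1.78 against 1.01, 1.16 and 1.06 in MLL-AF6, and 1.35, 0.869 and 1.19 against 1.61, 1.51 and 1.81 in MLL-AF1p, and it did not pass in any construct, with changes of −0.07, −0.24 and 0.40 (SE 0.16 each; limma, adjusted p = 0.74, 0.211 and 0.0508). In MLL-AF1p it passed in 7 of 18 fits that left out 1 library, among them DMSO library 1 of that construct, and under 7 other settings (0.31 to 0.54). Rpl34 stood at 2.77, 3.57 and 3.18 RPKM in the MLL-AF9 DMSO libraries against 3.53, 2.62 and 2.44 with MI-2-2, 2.23, 2.6 and 2.74 against 2.36, 2.03 and 2.05 in MLL-AF6, and 3.1, 2.21 and 2.72 against 4.45, 4.14 and 4.64 in MLL-AF1p. It did not pass in MLL-AF9 or MLL-AF6 and rose in MLL-AF1p, with changes of −0.14, −0.19 and 0.64 (SE 0.13 each; limma, adjusted p = 0.388, 0.225 and 0.000883). All 4 encode core parts of the ribosome, and how reads shared with pseudogenes were counted is not given in the sources used here. Only 45 to 237 reads per library lie behind Rpl34.

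Ribosomal protein genes have many near-identical pseudogenes, among which reads can be split or lost, and the deposited values do not say how such reads were treated. In current transcripts (GENCODE M21), 37.9 to 98.6% of 50-base windows of Rpl26, Rpl30, Rpl34 and Rps27 also occur in other genes' transcripts. That share was 93.3% for Rpl9, which stood at a mean of 1432 RPKM. Across 76 genes the Spearman coefficient of shared windows with level was 0.03, a description that says nothing of single genes. Of 6 pseudogene entries with ribosomal protein names, 3 were tested, and 3, 1 and 1 fell, too few genes to set against the shares of all genes.

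The next comparison asked whether the response differed between constructs. MLL-AF1p libraries were also the deepest, so fusion partner and depth cannot be told apart there. The labels name no separate clones, so fusion partner and clone cannot be told apart in any comparison of constructs. By an F test of the effect across the 3 constructs, 70 of 78 genes differed (52.8% of all genes tested). The fall in MLL-AF9 was deeper than in MLL-AF6 for 61 genes and shallower for 0 (9.02 and 24.0% of all genes), with a median difference of −0.49. Against MLL-AF1p it was deeper for 60 and shallower for 0 (13.6 and 21.4%), with a median difference of −0.51. The change in MLL-AF6 was below that in MLL-AF1p for 5 genes and above it for 1 (19.5 and 11.6%), with a median difference of −0.05. Quantile normalization brought the 61 and 60 down to 15 and 26, and the 70 to 39. The 3 comparisons share libraries in pairs.

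Rpl37a, a zinc-binding protein of the large subunit, and Rps3 followed Rpl7l1 in the F test. Rpl37a stood at 1583, 1783 and 1626 RPKM in the MLL-AF9 DMSO libraries against 820.5, 842 and 847 with MI-2-2, 949, 1042 and 1109 against 797, 860.4 and 768 in MLL-AF6, and 1186, 1185 and 1159 against 887, 917 and 909 in MLL-AF1p. Its changes were −0.99, −0.35 and −0.38 (SE 0.06 each; limma, adjusted p = 4.38e-09, 0.000259 and 0.0002), with an F test adjusted p of 6.73e-05 in limma. For Rps3 that p was 9.22e-05, with the fall in MLL-AF9 the deepest.

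The constructs also differed before treatment, with the same limits on what sets them apart. Under DMSO, 76 of 78 genes were higher in MLL-AF9 than in MLL-AF6 and 0 lower (24.5 and 29.1% of all genes), with a median difference of 0.71. Against MLL-AF1p, 61 were higher in MLL-AF9 and 0 lower (28.6 and 36.5%), median 0.39. MLL-AF6 was lower than MLL-AF1p for 51 and higher for 1 (28.8 and 23.7%), median −0.30, and the 51 became 32 without MLL-AF6 DMSO library 1. MLL-AF9 DMSO had the highest group mean for 74 of 78 genes. The largest differences from MLL-AF6 were those of Rpl37 (1.08) and Rps26 (1.04; limma, adjusted p = 2.45e-07 and 3.13e-07). The least were Rpl30, at −0.18 (adjusted p = 0.352), and Rpl7l1, at 0.23 (adjusted p = 0.00869). From MLL-AF1p the largest were those of Rps15 (0.85), which lies near the decoding site, and Rpl18 (0.82; limma, adjusted p = 1.12e-05 and 2e-05). Rps27l (−0.15) and Rpl39 (−0.04) were at the other end and did not pass (adjusted p = 0.243 and 0.767).

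Between MLL-AF6 and MLL-AF1p under DMSO, Rpl22 (−0.78) and Rpl3 (−0.74) differed most (limma, adjusted p = 0.000213 and 8.93e-05). Rpl7l1 was the gene higher in MLL-AF6, by 0.27 (adjusted p = 0.00341), and Rpl30 came next at 0.19 (adjusted p = 0.323). Rps15 stood at 2354, 3431 and 2676 RPKM in the MLL-AF9 DMSO libraries against 1310, 1393 and 1345 with MI-2-2, 1288, 1643 and 1564 against 929, 1103 and 945 in MLL-AF6, and 1551, 1569 and 1504 against 1134, 1183 and 1211 in MLL-AF1p, and Rpl18 at 1734, 2545 and 2062 RPKM in the MLL-AF9 DMSO libraries against 994, 999.9 and 999.7 with MI-2-2, 1018, 1358 and 1245 against 724, 854 and 765 in MLL-AF6, and 1190, 1187 and 1181 against 954, 923 and 981 in MLL-AF1p. The fall of Rpl18 in MLL-AF1p was lost without any 1 of the 6 libraries of that construct (limma, adjusted p up to 0.100). It was lost too with no filter on low values (0.0709) and with median centring (0.0785). For both genes the 3 MLL-AF9 DMSO libraries lay above all others, and with MI-2-2 their levels in MLL-AF9 came near those of treated MLL-AF1p.

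With MI-2-2, MLL-AF9 lay closer to both other constructs by the median, and MLL-AF6 and MLL-AF1p did not lie closer to each other. MLL-AF9 was higher than MLL-AF6 for 34 genes and lower for 0 (30.1 and 13.0% of all genes), with a median of 0.23 beside 0.12 for all genes tested, and the 34 became 7 with median centring. MLL-AF9 was lower than MLL-AF1p for 11 and higher for 0 (26.4 and 27.8%), median −0.12. MLL-AF6 was lower than MLL-AF1p for 63 and higher for 0 (35.1 and 17.4%), median −0.35 beside −0.13 for all genes. MLL-AF6 MI-2-2 had the lowest group mean for 77 of 78 genes.

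Single genes at the ends of these differences were often the near-0 ones. Between MLL-AF9 and MLL-AF6, Rps27 (0.60) and Rps26 (0.46) were highest (limma, adjusted p = 0.0114 and 0.0014), and without MLL-AF9 MI-2-2 library 3 Rps27 no longer passed (0.48, adjusted p = 0.0612). Rpl22l1 (−0.05) and Rpl30 (−0.01) were lowest and did not pass (adjusted p = 0.676 and 0.968). Between MLL-AF9 and MLL-AF1p, Rpl34 (−0.56) and Rps2 (−0.55) were lowest (adjusted p = 0.00184 and 0.00119 in limma), and Rps27 (0.27) and Rps15 (0.20) did not pass at the other end (adjusted p = 0.205 and 0.161), though Rps27 did without MLL-AF9 MI-2-2 library 1 (0.45, adjusted p = 0.0451). Between MLL-AF6 and MLL-AF1p, Rpl34 (−0.89) and Rpsa (−0.71) were lowest (adjusted p = 4.26e-05 and 0.00147 in limma). There Rpl22l1 (−0.06) and Rps28 (−0.09) differed least (adjusted p = 0.597 and 0.257).

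Within the family, some genes moved further than the rest. Each gene was also tested after the family's median in each library had been subtracted. In MLL-AF9, 24 genes fell more than the median member and 13 less, where 1.9 and 88.3% of all genes did. In MLL-AF6 these were 21 and 6 (5.92 and 46.1%), and in MLL-AF1p 13 and 18 (4.5 and 59.2%). Rpl5, Rpl10a, Rpl28 and Rps7 fell more than the median in all 3 constructs, and Rplp1, Rps2 and Rps27l fell less or not at all in all 3. Relative to the median, Rpl5 was at −0.26, −0.25 and −0.27, and Rps2 at 0.18, 0.22 and 0.42. The count for MLL-AF6 was 7 and 2 with a constant prior variance, and 5 and 2 with that construct fitted alone.

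Genes with and without a TOP-like annotated start had similar medians. As annotated starts can lie some bases off, this split may not part genes with the motif from genes without it. The 13 genes with such a start had medians of −1.0, −0.50 and −0.53, and 13, 12 and 12 fell. The other 45 genes with a window had medians of −0.96, −0.47 and −0.46, and 44, 42 and 39 fell. Among all genes tested, 27.9, 38.9 and 26.3% fell. The 45 include the paralogs Rpl22l1, Rpl7l1 and Rps27l and the near-0 Rpl34, and the 13 include the near-0 Rps27. Among those printed above, Rpl28 changed by −1.12, −0.57 and −0.63, and Rps10 by −1.13, −0.58 and −0.51.

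Other translation genes were read from lists written from general knowledge, though with earlier results of these data known. Of 24 genes for translation factors and related proteins whose mRNAs are known to carry TOP motifs, 23, 22 and 19 fell in MLL-AF9, MLL-AF6 and MLL-AF1p and 0 rose, with medians of −0.71, −0.40 and −0.37. Eif3f, a subunit of the initiation factor eIF3, changed by −1.23, −0.85 and −0.78, and Eef1b2, an exchange factor for the elongation factor eEF1A, by −1.04, −0.61 and −0.58. Gnb2l1, which encodes the small subunit's scaffold RACK1, changed by −1.10, −0.57 and −0.41, and all of these passed the test. Of 25 other initiation factor genes, 13, 19 and 3 fell and 1, 0 and 5 rose, with medians of −0.24, −0.30 and 0.02. Among all genes tested, 27.9, 38.9 and 26.3% fell and 28.5, 18 and 19.1% rose. The falls of the 24 genes stood well over those shares in every construct. Those of the 25 did so in MLL-AF9 and MLL-AF6 only. In MLL-AF1p their falls lay below the share of all genes, and their rises lay near it.

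Mitochondrial ribosomal proteins, which build the ribosome of that organelle, had smaller median changes. Of 76 genes, 46, 28 and 14 fell and 0, 1 and 5 rose, with medians of −0.30, −0.14 and −0.04, and 26 differed between constructs by the F test. Beside them stand 27.9, 38.9 and 26.3% lower, 28.5, 18 and 19.1% higher and 52.8% differing among all genes tested, so only the falls in MLL-AF9 stand well over that share. Their share of reads under DMSO was 0.362 ± 0.0324% for MLL-AF9, 0.314 ± 0.0247% for MLL-AF6 and 0.351 ± 0.00573% for MLL-AF1p (± SD of 3 libraries), and after treatment 0.290 ± 0.00943%, 0.276 ± 0.0141% and 0.330 ± 0.00381%. On the log2 scale Mrpl38 fell by 1.11 in MLL-AF9 and by 0.27 in MLL-AF6, while its 0.08 in MLL-AF1p missed the threshold (limma, adjusted p = 0.34).

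**Figure D4:**
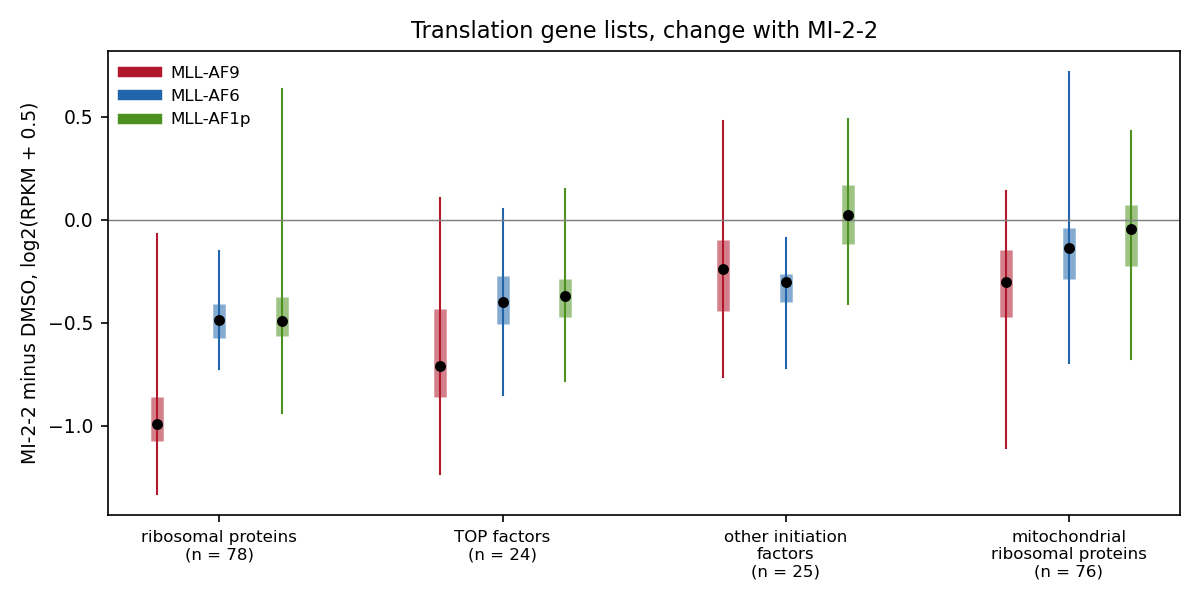
Change with MI-2-2 on the log2(RPKM + 0.5) scale for 4 gene lists in each construct, with the median as a dot, the interquartile range as a thick bar and the full range as a line. Ribosomal proteins have medians of −0.99, −0.48 and −0.49, and mitochondrial ribosomal proteins of −0.30, −0.14 and −0.04.

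Proteins that fold or import ribosomal proteins numbered 14, of which 3, 7 and 1 fell and 2, 0 and 2 rose, near or below those shares apart from the 7 in MLL-AF6. Pdcd2, a chaperone of Rps2, fell in all 3 constructs, by changes of −0.83, −0.52 and −0.55. Regulators of ribosomal protein synthesis went both ways, with 3, 6 and 2 of 18 lower and 5, 2 and 4 higher, near or below the shares of all genes. Myc, a transcription factor that drives ribosome synthesis, had the largest mean change of the list. Its changes were −1.32, −0.88 and −0.50, of which the last did not pass (limma, adjusted p = 0.0002, 0.00486 and 0.0984). Eif4ebp1, an inhibitor of cap-dependent initiation, had means of 140 ± 78.8, 110 ± 26.5 and 146 ± 13.6 RPKM under DMSO and 51.0 ± 6.16, 80.9 ± 19.6 and 80.1 ± 0.657 after treatment (± SD of 3 libraries). It fell in MLL-AF9 and MLL-AF1p. Mtor, the kinase that sets TOP translation, lies outside the naming rule and was chosen after its values were seen. It rose in each construct, by 0.32, 0.20 and 0.25 (limma, adjusted p = 0.000206, 0.00722 and 0.0021). Of 7 genes of the p53 axis that reads free Rpl5 and Rpl11, 3, 4 and 1 fell and 2, 0 and 0 rose, too few genes to set against those shares, with Bbc3, a p53 target, at −0.92, −0.52 and −0.00 and Cdkn1a, which slows the cell cycle, at −0.32, −0.36 and −0.57 on the log2 scale. Bbc3 passed in MLL-AF9 and MLL-AF6, and Cdkn1a in MLL-AF1p.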

How the data were processed

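Expression was taken from the authors' deposited table of RPKM values, with gene names and lengths, for 18 libraries in 6 groups of 3, grouped by the labels. Named without a role in the submitters' processing notes are HTSeq, edgeR, Bowtie2 2.0.0.7, CASAVA 1.8.2 and the mm9 build. Per the labels' protocols, the libraries were made with an Illumina TruSeq mRNA kit; nothing says that strand was used in counting, and overlapping genes may share reads. RPKM times length gave whole reads for 100% of values within 0.05, and hence depth. Genes of at least 1 RPKM in at least 3 libraries entered the tests, 11238 in all.

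Tests used log2(RPKM + 0.5), a scale that understates changes of low genes, in limma 3.58.1 (R 4.3.3). The fit had 1 mean per group, 12 residual degrees of freedom and a prior variance that follows the mean level. The Benjamini-Hochberg method adjusted p-values over all genes entered, by comparison. The code was tested on simulated data. Figures used matplotlib 3.10.9 in Python 3.11.15.

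The members and gene lists were chosen with earlier results of these data known. Values in every library were given for fixed genes, paralogs and their partners, the 3 largest and 3 smallest mean falls, and the 3 smallest p-values of the F test. The 2 extremes on each side of each pair of constructs were named too, and at most 4 genes per list. Mtor was named outside this rule. Some results are not reported here. Other settings tried were pseudocounts of 0.1 and 1, no filter, median centring, quantile normalization, scaling to reads outside the family, removal of a length trend, a constant prior variance, a replicate block, each construct or treatment fitted alone, shares without the paralogs or without Rn45s reads, voom on recovered reads, and each library left out.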

Additional observations from a re-analysis of the deposited data

Results flagged for a closer look

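An F test in limma, adjusted over all genes kept, asked whether the effect of MI-2-2 differed between constructs. It did for 52.8% of all genes tested, and for 70 of the 78 ribosomal protein genes tested. Among them, Rpl7l1 (adjusted p = 5.01e-05) was lower with MI-2-2 in 6 of 6 MLL-AF9 and MLL-AF6 treated libraries and higher in 3 of 3 of MLL-AF1p. Rpl37a (adjusted p = 6.73e-05) and Rps3 (adjusted p = 9.22e-05) fell in every construct, most in MLL-AF9. Rpl34 (adjusted p = 0.00248), at a few RPKM, had changes of −0.14, −0.19 and 0.64 in MLL-AF9, MLL-AF6 and MLL-AF1p.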

How the results depend on the processing

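The falls with MI-2-2 ran from 68 to 76, 66 to 75 and 50 to 72 over all settings run. Rises of 0 in MLL-AF9 and 2 in MLL-AF1p became 1 and 4 with quantile normalization. Quantile normalization also gave 15 deeper and 4 shallower falls in MLL-AF9 against MLL-AF6, 26 and 1 against MLL-AF1p, 20 and 2 for MLL-AF6 against MLL-AF1p, and 39 genes in the F test. For the last pair, deeper falls were 2 with no filter, 2 with median centring and 8 with the length trend removed, and shallower ones 0 with no filter and 2 with the replicate block.

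Under DMSO, quantile normalization gave 1 gene lower in MLL-AF9 than in MLL-AF6, 39 higher and 5 lower against MLL-AF1p, and 8 higher in MLL-AF6 than in MLL-AF1p. With the length trend removed, 2 were lower in MLL-AF9 than in MLL-AF1p and 4 higher in MLL-AF6 than in MLL-AF1p, and 32 were lower in MLL-AF6 with the DMSO libraries alone. With MI-2-2, genes higher in MLL-AF9 than in MLL-AF6 were 18 with no filter, 7 with median centring, 18 with the length trend removed and 57 with the treated libraries alone. Against MLL-AF1p, higher and lower were 6 and 19 with quantile normalization, 4 and 20 with the length trend removed, and 2 and 29 with the treated libraries alone.

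Relative to the median member, 15 fell more in MLL-AF9 with a constant prior variance, and in MLL-AF6 this gave 7 more and 2 less, and that construct alone 5 and 2. The MLL-AF9 MI-2-2 share was 5.48% of reads outside Rn45s.

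Replicate numbers are shared across groups, and same-numbered libraries tended to deviate together, though not all did. Of 45 such pairs, 33 correlated above 0.1 (−0.10 to 0.63). Their median was 0.19, against −0.10 for the 90 pairs of different number. The mean correlation with libraries of each number in other groups was highest for the own number in 14 of 18 libraries. With a replicate block 76, 73 and 72 genes fell, among them the 76, 73 and 70 that fell without it, and Rpsa in MLL-AF1p passed (adjusted p = 0.0169 in limma, against 0.0734). The genes lower in MLL-AF9 than in MLL-AF1p with MI-2-2 were 22 in place of 11.

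With each library left out in turn, genes with a deeper fall in MLL-AF6 than in MLL-AF1p ran from 2 to 12, and shallower from 0 to 1. Genes lower in MLL-AF6 than in MLL-AF1p under DMSO ran from 32 to 58. With MI-2-2, those higher in MLL-AF9 than in MLL-AF6 ran from 13 to 50, and higher and lower against MLL-AF1p from 0 to 1 and from 5 to 16. Those below the median member in MLL-AF6 ran from 11 to 24.

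Changes turned sign as follows, with the cause not tested. Under quantile normalization, Rpl10 in MLL-AF9 was 0.15, Rps2 0.045 in MLL-AF6 and 0.23 in MLL-AF1p, and in MLL-AF1p Rps19 was 0.011, Rps29 0.028 and Rps27 0.051. With the length trend removed, Rpl30 (0.12) and Rpl34 (0.065) in MLL-AF9, and Rps2 (0.073), Rps27l (0.13) and Rps27 (0.10) in MLL-AF1p did so. Median centring gave Rps27l 0.011 and Rps27 0.023 in MLL-AF1p, and voom gave Rps27 0.016. Leaving out a library gave −0.25 to 0.13 for Rps27 and −0.070 to 0.0091 for Rps27l in MLL-AF1p, and −0.22 to 0.035 for Rpl30 in MLL-AF9. Between constructs, Rpl39 under DMSO (MLL-AF9 against MLL-AF1p) was 0.054 with median centring, 0.0035 with scaling outside the family and −0.098 to 0.015 with a library left out. With MI-2-2, Rpl30 (MLL-AF9 against MLL-AF6) was 0.0033 with voom and −0.16 to 0.092 with a library left out, and Rpl22l1 −0.13 to 0.022. Rps28 (MLL-AF6 against MLL-AF1p) was 0.11 with quantile normalization and 0.050 with the length trend removed, and Rpl22l1 0.0015 with median centring and 0.083 with the length trend removed.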
